A study of Mus musculus with 2 samples.

Results

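The 10 genes described here coat the lipid droplet or release fatty acids from it: the perilipins Plin1, Plin2, Plin3, Plin4 and Plin5, the droplet fusion factor Cidec, the lipases Pnpla2 and Lipe, and the lipase regulators Abhd5 and G0s2. They were chosen by gene name, and all 10 were found among the 26082 genes of the deposited tables. RNA of primary mouse fibro-adipogenic progenitors (FAPs), mesenchymal cells of muscle from which adipocytes can arise, was sequenced for cells given a TGFBR3 overexpression plasmid and for cells given the empty vector. Each condition had 1 library, called here the OE-labelled and the control-labelled library, and the question was how TGFBR3 alters the adipogenesis of FAPs. Cells of both groups carried the wild-type genotype and had been placed in adipogenic medium, in which insulin was used at 10 μg/ml, dexamethasone at 0.25 μM and IBMX at 0.5 mM, in 20% serum. IBMX blocks the breakdown of cAMP, the signal that starts lipolysis, and insulin opposes lipolysis, so that both groups shared agents that act on the genes described. The study's methods name C57BL/6 mice as its animals and sorting by antibody for its FAPs, while the labels give no age for these cultures, no promoter and no species for the plasmid insert.

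Triglycerides are kept in lipid droplets, whose surface is covered by proteins. PLIN2 and PLIN3 coat droplets in most cell types, whereas PLIN1, PLIN4 and CIDEC are typical of adipocytes and PLIN5 of oxidative tissues such as heart and muscle. PNPLA2 (ATGL) removes the first fatty acid from a triglyceride, LIPE (hormone-sensitive lipase) removes the next, and MGLL releases the last. ABHD5 activates PNPLA2 and is held by PLIN1 in the resting adipocyte, while G0S2 inhibits PNPLA2.

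Plin2 made up most of the transcripts of the set and was the member with the largest positive difference. Its level was 2.09-fold higher in the OE-labelled library than in the control-labelled library (95% counting interval 2.06 to 2.11). Abhd5 was 1.40-fold higher (1.33 to 1.46). The adipocyte genes Plin1 and Cidec and the lipase inhibitor G0s2 were 1.72-fold, 2.47-fold and 2.55-fold lower, while Pnpla2, Plin3, Plin4 and Lipe differed by 1.15-fold or less.

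Several limits hold for every value. As each condition is a single library, the spread between cultures is unknown and p-values are not given. The intervals, exact at the 95% level, hold only the error of counting reads and speak of the 2 libraries rather than of the treatments. The sum of the deposited counts was 62321027 for the OE-labelled library and 83779203 for the control-labelled one. Tgfbr3 itself had FPKM (counts scaled by gene length and library total) of 36.9 and 35.1, a log2 ratio of (FPKM + 1) of 0.07. As the transfected gene was raised by no more than a typical gene, both libraries go by their labels, and so does each direction given. The defining FAP markers Pdgfra (FPKM 30.5 and 32.6) and Ly6a (1013 and 706) were present in both. Of the 10 FAP markers, counting intervals lay below no change for 7 and above it for 3. Over all genes with more than 3 counts in at least 1 library these shares were 22.4% and 45.7%. Dpt (3.48 and 8.72), Col3a1 (95.8 and 199) and Col1a1 (467 and 870) had log2 ratios of (FPKM + 1) of −1.12, −1.05 and −0.89, and Ly6a the highest (0.52). With nothing added, Lum was 7.66-fold higher (45 and 8 counts) and Pi16 3.12-fold lower (12 and 51). Across the 10626 genes that reached an FPKM of 1 in each library, the median log2 ratio of (FPKM + 1) was 0.13, so that a typical gene stood slightly higher in the OE-labelled library.

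The promoters of the contrasted members are given first, because Plin2 is set against Plin1, Cidec and G0s2 throughout. RefSeq windows on GRCm38.p6, each 300 bases long with 250 bases before a start site and 50 after it, matched all 10 members, in 13 windows. Those below are on the minus strand of the genome and are written 5′ to 3′ along the gene, with positions counted from 1 at the first base of the window. Capitals mark matches, on either strand, to 9 of the 10 motifs searched, and the GC box was left in lower case. The Plin2 window spans chr4:86670010-86670309, that of Plin1 chr7:79732727-79733026, those of Cidec chr6:113434715-113435014 and chr6:113435711-113436010, and that of G0s2 chr1:193273139-193273438.
Plin2: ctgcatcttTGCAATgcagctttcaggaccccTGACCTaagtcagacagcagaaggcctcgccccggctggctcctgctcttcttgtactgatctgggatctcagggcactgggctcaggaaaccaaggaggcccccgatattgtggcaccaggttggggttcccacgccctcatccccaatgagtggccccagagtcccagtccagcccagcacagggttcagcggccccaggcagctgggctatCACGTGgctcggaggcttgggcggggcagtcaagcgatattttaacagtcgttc
Plin1: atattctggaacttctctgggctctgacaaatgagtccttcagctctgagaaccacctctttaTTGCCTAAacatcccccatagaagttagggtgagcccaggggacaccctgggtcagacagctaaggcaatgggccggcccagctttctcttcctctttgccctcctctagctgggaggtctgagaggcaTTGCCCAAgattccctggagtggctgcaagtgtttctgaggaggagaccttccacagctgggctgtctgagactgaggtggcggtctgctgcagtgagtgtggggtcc
Cidec, window 1: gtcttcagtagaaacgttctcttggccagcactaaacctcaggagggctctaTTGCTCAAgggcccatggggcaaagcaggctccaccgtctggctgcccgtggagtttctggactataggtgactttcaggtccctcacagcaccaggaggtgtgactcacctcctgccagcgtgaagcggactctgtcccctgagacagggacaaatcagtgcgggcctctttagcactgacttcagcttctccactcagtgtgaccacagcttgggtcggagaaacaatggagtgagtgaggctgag
Cidec, window 2: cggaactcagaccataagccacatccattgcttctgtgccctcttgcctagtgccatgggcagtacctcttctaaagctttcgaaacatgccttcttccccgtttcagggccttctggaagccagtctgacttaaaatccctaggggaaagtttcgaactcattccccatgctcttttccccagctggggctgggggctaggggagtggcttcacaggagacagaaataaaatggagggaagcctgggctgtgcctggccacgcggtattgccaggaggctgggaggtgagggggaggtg
G0s2: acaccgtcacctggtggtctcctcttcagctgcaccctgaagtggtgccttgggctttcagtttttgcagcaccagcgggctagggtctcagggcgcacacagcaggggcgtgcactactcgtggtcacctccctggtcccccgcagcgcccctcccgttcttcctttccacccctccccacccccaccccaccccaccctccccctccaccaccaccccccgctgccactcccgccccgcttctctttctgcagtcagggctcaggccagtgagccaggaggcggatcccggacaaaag

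The Plin2 window held the C/EBP-CHOP core TGCAAT at positions 10 to 15, which 8.40% of 32851 mouse promoter windows also hold. It held the nuclear receptor half-site AGGTCA on the opposite strand at positions 33 to 38 (16.3% of windows) and the E-box CACGTG at positions 247 to 252 (7.15%). Neither Plin1, Cidec nor G0s2 had a match to these motifs. Plin1 held a C/EBP-type site, TTGCNNAA, at positions 64 to 71 and at 193 to 200, and Cidec held 1 in its first window, at positions 53 to 60, against 10.8% of all windows. Among the other members, Abhd5 held the half-site AGGTCA at positions 182 to 187, Plin5 held it in both of its windows, and Lipe held an E-box. The full PPAR direct repeat of that half-site, with 1 base between the copies, was in none of the 13 windows and in 0.0396% of all windows. The TATA box TATAAA, the cAMP response element TGACGTCA, the interferon-stimulated response element and the glucocorticoid response element were likewise in none of the 13, and in 13.6%, 1.79%, 3.44% and 0.00913% of all windows. The GC box GGGCGG was in 8 of the 13 windows and in 35.7% of all. A match is a description of the letters only.

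The perilipins that coat droplets in most cells were the most abundant members. Plin2 (ENSMUSG00000028494) is found on the minus strand of chromosome 4 (mm10), between 86648386 and 86670060. Its level was an FPKM of 243 in the OE-labelled library, from 57930 counts, and 116 in the control-labelled library, from 37796 counts. By FPKM it ranked 164th of 26082 genes in the first library and 417th in the second. It took 0.0930% of all counts in the OE-labelled library (Clopper-Pearson interval 0.0922 to 0.0937) and 0.0451% in the other (0.0447 to 0.0456). On the log2 scale of (FPKM + 1) the ratio was 1.06 (1.04 to 1.07). Among the 21364 genes with more than 3 counts in at least 1 library, 321 had a larger ratio. Plin2 thus had both the highest level and the largest ratio of the set.

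Plin3 (ENSMUSG00000024197, chromosome 17, 56277476 to 56292873), whose protein moves between the cytosol and new droplets, had FPKM of 35.1 in the OE-labelled library and 36.8 in the other, from 9003 and 12861 counts. Both levels were within 1.05-fold of each other (control-labelled over OE-labelled, 1.02 to 1.08). The gene ranked 1446th and 1334th by FPKM. Plin2 therefore stood apart from the other broadly used perilipin. The count of Plin2 relative to that of Plin3 was 2.19-fold higher in the OE-labelled library (exact conditional interval 2.12 to 2.26), a comparison from which library totals and gene lengths cancel out.

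**Figure D1:**
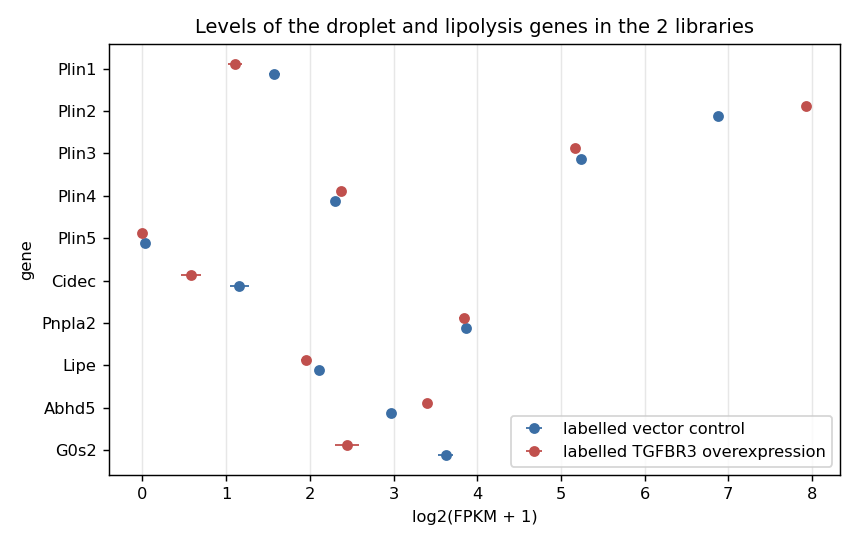
Level of each of the 10 genes in the OE-labelled library (red) and the control-labelled library (blue), as log2(FPKM + 1), with 95% counting intervals where they exceed the point. Plin2 sits highest in both libraries, at FPKM 243 and 116, and Plin5 at or next to 0.

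Plin4 and Plin5 neighbor each other on chromosome 17 of mm10, with 1797 bases between them, and Plin3 follows 159879 bases further on. Plin4 (ENSMUSG00000002831, 56100591 to 56109803), which coats small new droplets in adipocytes, had FPKM of 4.18 and 3.93, from 1801 and 2309 counts. The log2 ratio of (FPKM + 1) was 0.07 (0.00 to 0.14), an interval that reaches no change. The direction of Plin4 was not settled, as the value was −0.05 when centred on the median gene and −0.14 with the trend over exon length removed.

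Plin5 (ENSMUSG00000011305, 56111601 to 56117596), the perilipin of oxidative tissues, had 0 counts in the OE-labelled library and 4 in the control-labelled library. The floor of 3 counts, set for the OE-labelled library, would be 4.09 counts at the depth of the control library, above the 4 counts seen there. Depth was therefore too low to show a difference in Plin5, and no fold is given. The transcript was at or next to 0 in both libraries although its neighbor Plin4 was measured at 1801 and 2309 counts.

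The adipocyte perilipin and the droplet fusion factor were low, and both were lower in the OE-labelled library. Plin1 (ENSMUSG00000030546, chromosome 7, 79720218 to 79732903), the main droplet coat of adipocytes, had FPKM of 1.15 and 1.98, from 365 and 856 counts. It was 41.9% lower, or 1.72-fold (1.52 to 1.95). On the log2 scale of (FPKM + 1), which compresses low genes, the ratio was −0.47 (−0.57 to −0.37).

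Cidec (ENSMUSG00000030278, chromosome 6, 113424634 to 113435760), which moves lipid between touching droplets and so enlarges them, had FPKM of 0.49 and 1.23. These came from 63 counts (exact Poisson interval 48.4 to 80.6) and 212 counts (184 to 243). Cidec was 59.5% lower, or 2.47-fold (1.86 to 3.33). With 1 added to each FPKM the log2 ratio was −0.58 (−0.73 to −0.41), short of 2-fold. Whether Cidec counts as 2-fold lower thus depends on the added 1, and its counting interval without the added 1 spans 2-fold. Set against each other, Plin1 was 1.43-fold higher than Cidec in relative terms (1.05 to 1.98), so that the difference was larger for Cidec than for Plin1, though the interval came close to 1.

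Among the coat genes, the contrast was widest between Plin2 and the adipocyte genes Plin1 and Cidec. In the control-labelled library the FPKM of Plin2 was 58.8 times that of Plin1 and 94.7 times that of Cidec. In the OE-labelled library the same ratios were 211 and 496. The ratio of Plin2 to Plin1 counts was thus 3.59-fold higher (3.17 to 4.08), and that of Plin2 to Cidec 5.16-fold higher (3.87 to 6.95). Plin2 was also higher relative to the broadly used Plin3, 2.19-fold (2.12 to 2.26), and to the adipocyte gene Plin4, 1.97-fold (1.84 to 2.09). Plin3 was not higher and Plin4 not clearly lower in the OE-labelled library, so neither followed a split into broad and adipocyte genes. Relative to Lipe, Plin2 was 2.39-fold higher (2.22 to 2.58), and the value was least relative to Abhd5, 1.496-fold (1.43 to 1.57). As Plin2 had the largest ratio of the set, all 8 comparisons with another member lie above 1 by construction. They share the same Plin2 counts, and Plin5 was left out for its low count. As these ratios are taken within each library, a scaling that shifts all genes alike leaves them as they are.

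**Figure D2:**
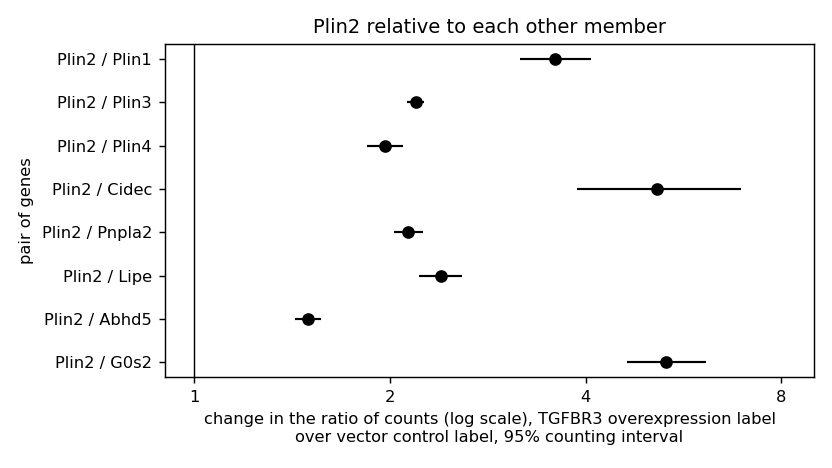
Change in the count of Plin2 relative to that of each other member (OE-labelled library over control-labelled library, log axis), with exact conditional 95% intervals that cover counting error only. The values run from 1.496 against Abhd5 to 5.31 against G0s2, and none of the intervals reaches 1. Plin2 had the largest ratio of the set, so that every value lies above 1 by construction.

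The makeup of the perilipin family followed from these levels. The FPKM of the 5 perilipins summed to 284 in the OE-labelled library and to 159 in the control-labelled library, 1.78-fold higher. Without Plin2 the sums were 40.4 and 42.7. Plin2 made up 85.8% of the family's FPKM in the OE-labelled library and 73.2% in the other. Plin3 went from 23.1% under the control label to 12.4%, Plin4 from 2.47% to 1.47% and Plin1 from 1.24% to 0.406%. The higher sum of the perilipins was therefore carried by Plin2.

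**Figure D3:**
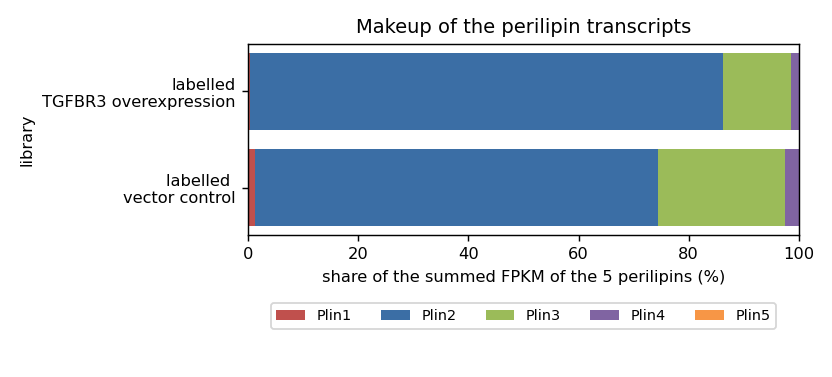
Share of each perilipin in the summed FPKM of the 5 perilipins, in percent, for the OE-labelled library (top) and the control-labelled library (bottom). Plin2 takes 85.8% and 73.2%, and the share of Plin5 is too small to be seen.

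Of the lipases, neither showed a large difference. Pnpla2 (ENSMUSG00000025509, chromosome 7, 141455198 to 141460743, plus strand), the lipase that starts triglyceride breakdown, had FPKM of 13.3 and 13.6, from 2724 and 3794 counts. Its level in the OE-labelled library was 0.978 of that in the other (0.9304 to 1.03), an interval that holds no change. Lipe (ENSMUSG00000003123, chromosome 7, 25379527 to 25398710) had FPKM of 2.88 and 3.31, from 1154 and 1802 counts, and was 12.8% lower. Its log2 ratio of (FPKM + 1) was −0.15 (−0.23 to −0.07). The antisense gene 4732471J01Rik overlaps 918 of the 5886 exon bases of Lipe, and the strand setting of the counting is not given in the sources used here.

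The regulators of Pnpla2 differed more than the lipase did, and in opposite directions. Abhd5 (ENSMUSG00000032540, chromosome 9, 122351608 to 122381524, plus strand), the activator, had FPKM of 9.54 in the OE-labelled library and 6.83 in the other. These came from 3857 and 3764 counts, and the log2 ratio of (FPKM + 1) was 0.43 (0.37 to 0.49). After removal of the trend over exon GC content the value was 0.19, and with that over exon length removed 0.22. Abhd5 has the lowest exon GC content of the set (46.5%), and the antisense gene A730085K08Rik overlaps 950 of its 5956 exon bases.

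G0s2 (ENSMUSG00000009633, chromosome 1, 193272161 to 193273217), the inhibitor, had the lowest ratio of the set. Its FPKM was 4.45 in the OE-labelled library, from 263 counts (232 to 297), and 11.3 in the control-labelled library, from 912 counts (854 to 973). G0s2 was 60.7% lower, or 2.55-fold (2.22 to 2.93), and the log2 ratio of (FPKM + 1) was −1.18 (−1.35 to −1.01). Only 69 of the 21364 tested genes had a smaller ratio.

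The regulators were also read relative to Pnpla2. In the control-labelled library there were 0.834 FPKM of G0s2 for each FPKM of Pnpla2, and in the OE-labelled library 0.335. The corresponding values for Abhd5 were 0.503 and 0.718. With the GC trend removed, an alternative chosen after seeing the data, the change of Abhd5 relative to Pnpla2 went from 1.43-fold to 1.07-fold higher, whereas that of G0s2 went from 2.49-fold to 2.56-fold lower. The count of Abhd5 relative to that of G0s2 was 3.55-fold higher in the OE-labelled library (3.07 to 4.12). In FPKM, Abhd5 stood at 0.603 of G0s2 under the control label and at 2.14 times G0s2 under the other, so that their order was exchanged. These are transcripts, and the proteins were not measured here.

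**Figure D4:**
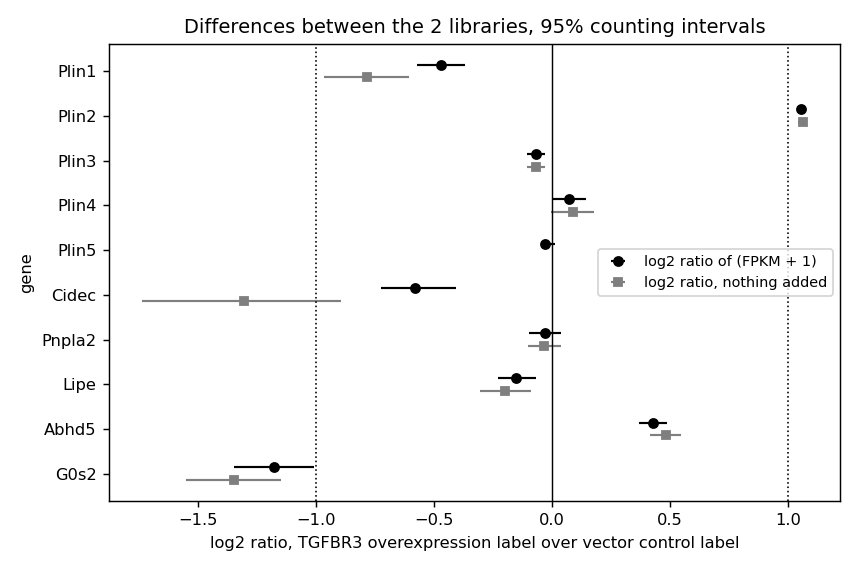
Log2 ratio of each gene, OE-labelled library over control-labelled library, with 1 added to each FPKM (black) and with nothing added (gray). Bars are 95% counting intervals, dotted lines mark 2-fold, and Plin5 has no gray point because 1 of its counts is 0. Plin2 lies beyond the upper line at 1.06 and G0s2 beyond the lower line at −1.18 with 1 added.

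Over the whole set, 1 of 10 members was at least 2-fold higher on the scale of (FPKM + 1), Plin2, against 1.73% of all tested genes. Another 1 of 10, G0s2, was at least 2-fold lower, against 0.58%. The counting interval lay above no change for 2 members, where 45.7% of all tested genes do so, and below it for 5 members, against 22.4%. With nothing added, 1 of the 9 members with more than 3 counts in both libraries was 2-fold higher and 2 were 2-fold lower, against 13.4% and 4.22%. The median log2 ratio of the 10 members was −0.05, beside 0.06 for all tested genes. With 10 members, each share at 2-fold rests on 1 or 2 genes.

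The 2-fold call of Plin2 was a close one. Its log2 ratio was 0.93 when centred on the median gene, 0.90 after removal of the GC trend and 0.93 with the trend over exon length removed, each short of 1. G0s2 stayed past −1 in all 7 alternatives.

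Other genes of the pathway were taken from lists and read in the order of lipolysis. Adrb3, the adrenergic receptor through which catecholamines start lipolysis in adipocytes, was low, with FPKM of 0.40 and 1.40 from 95 and 438 counts. Prkar2b and Prkacb, subunits of the cAMP-dependent protein kinase that phosphorylates PLIN1 and LIPE, had log2 ratios of (FPKM + 1) of 0.77 (FPKM 19.2 and 10.9) and 0.53 (8.56 and 5.64). At the end of the cascade Mgll, the monoglyceride lipase, had FPKM of 0.37 and 1.89 from 130 and 891 counts, 5.03-fold lower without an added 1. Abhd6, another monoglyceride lipase, was higher, at 2.78 and 1.81. Other kinase subunits, named after their values were seen, did not share that direction: the catalytic subunit gene Prkaca, more abundant than Prkacb, was lower at FPKM 54.0 and 64.6 (−0.25, interval −0.29 to −0.22), and Prkar1a stood at 97.1 and 92.6 (0.07). In this list of 20 genes, 19 had more than 3 counts in at least 1 library. On the scale of (FPKM + 1) only Mgll was 2-fold lower (log2 ratio −1.08), against 0.58% of all tested genes. None was 2-fold higher, against 1.73%, and the median was 0.02. In both libraries 18 genes of the list had more than 3 counts. With nothing added, 4 of these were 2-fold lower, against 4.22% of all such genes, and 1 was higher, against 13.4%. The genes past 2-fold were Mgll, Adrb3 (3.39-fold), the glycerol channel gene Aqp7 (6.98-fold, 8 and 76 counts), Adora1 (2.32-fold) and, in the higher direction, Npr1 (7.83-fold, 46 and 8 counts). The receptor and the last lipase of the cascade were thus lower in the OE-labelled library, while the kinase subunits went both ways.

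The genes that build droplets and fill them differed little. Of the 18 gene symbols in the list of droplet formation genes, 13 were found and analysed here. None of these was 2-fold changed on the scale of (FPKM + 1), with log2 ratios between −0.16 and 0.36. The largest belonged to Fitm2, which helps triglyceride leave the endoplasmic reticulum, at FPKM 8.26 and 6.20 (0.36). The droplet GTPase Rab18 followed, at 25.5 and 19.8 (0.36). Bscl2, which encodes seipin, stood at 16.1 and 13.8. The median of 0.06 was that of all tested genes.

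Among 18 measured enzymes of triglyceride synthesis the median was 0.11, and none was 2-fold changed. Acsl5, Agpat5, Acsl4 and Lpin1 had log2 ratios between 0.51 and 0.54, whereas Dgat1, which catalyzes the last step, was lower (−0.52, FPKM 5.49 and 8.31). The other Dgat gene listed, Dgat2, named after its values were seen, was slightly higher (0.11, interval 0.03 to 0.19, FPKM 8.87 and 8.14). Of 9 measured genes of fatty acid uptake, with a median of −0.09, the lipoprotein receptor Vldlr had the largest ratio (0.67, FPKM 4.99 and 2.77). None of the uptake genes was 2-fold changed either. With nothing added, none of the 12, 18 and 9 genes of these lists with more than 3 counts in both libraries reached 2-fold in either direction. The largest positive ratio among them was that of Vldlr, 1.80-fold, beside 2.09-fold for Plin2. None of the genes of droplet formation, filling or uptake in these lists thus reached the ratio of Plin2, and Vldlr was the nearest to it.

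**Figure D5:**
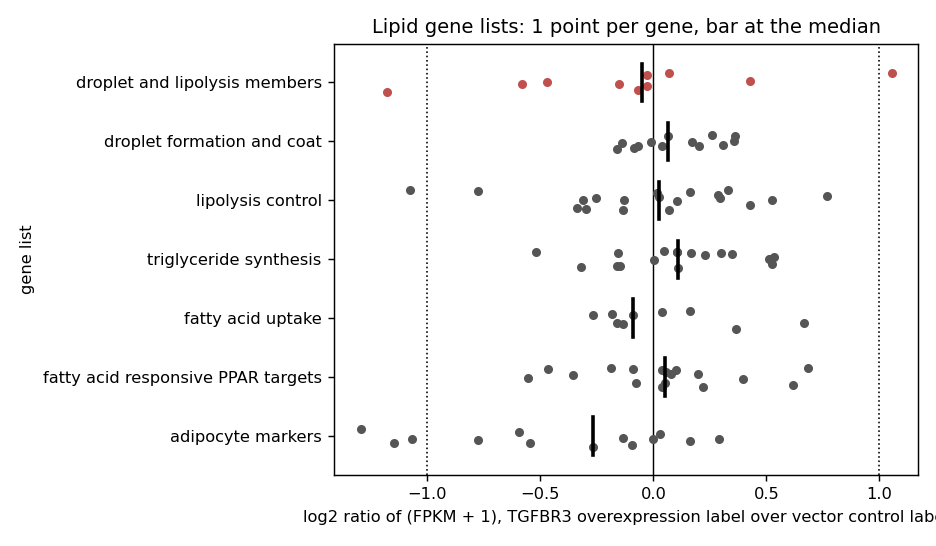
Log2 ratio of (FPKM + 1), OE-labelled library over control-labelled library, for the 10 members (red) and for the measured genes of 6 lipid gene lists (gray), 1 point per gene with a bar at the median and dotted lines at 2-fold. Plin2 at 1.06 is the only point past the upper line, and the adipocyte markers have the lowest median, −0.27.

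Plin2 is also known as a gene that fatty acids induce through PPARs. Of 17 other genes of this kind none was 2-fold changed on the scale of (FPKM + 1), and their median was 0.05. Pdk4, which restrains glucose oxidation, had FPKM of 18.9 and 11.4 (log2 ratio 0.68), and the mitochondrial fatty acid importers Cpt1b and Cpt1a had ratios of 0.62 and 0.40. Acadvl, a dehydrogenase of fatty acid oxidation, was lower at 48.6 and 72.0 (−0.56), and Ucp2 was lower at 1.31 and 2.19 (−0.47). Cpt1b was low, with FPKM of 0.98 and 0.29 from 226 and 90 counts, and without the added 1 it was 3.42-fold higher, above the 2.09-fold of Plin2. The genes thus did not share a direction, and whether any reached the ratio of Plin2 depends on the added 1.

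Most adipocyte markers were lower, beside the lower Plin1, Cidec and G0s2: of 13 measured genes, the counting interval lay below no change for 9 and above it for 3. Over all tested genes these shares were 22.4% and 45.7%. On the scale of (FPKM + 1), 3 markers were lower by 2-fold or more, against 0.58% of all tested genes. None was higher by as much, against 1.73%, and the median log2 ratio was −0.27. With nothing added, 6 of 11 markers with more than 3 counts in both libraries were lower by 2-fold or more, against 4.22% of all such genes. Those lower only without the added 1 were Adrb3, Slc2a4 (2.39-fold, 12 and 39 counts) and Thrsp (20.2-fold, 4 and 110 counts). The FPKM of the list summed to 57.3 and 96.4, of which Cfd made up 15.3 and 39.0. Cfd (adipsin) and the lipogenic regulator Thrsp stood at log2 ratios of −1.29 and −0.59, Car3 at −1.15 and the adipokine gene Adipoq at −1.07. Of the transcription factors that drive adipocyte genes, Cebpa was lower, with FPKM of 10.4 and 15.6 (−0.55), and Pparg was higher, with 2.19 and 1.61 (0.29, interval 0.16 to 0.41). The abundant markers Lpl and Fabp4 differed little, with FPKM of 10.02 and 8.86 (0.16, interval 0.12 to 0.20) and of 12.6 and 13.9 (−0.14). In bulk RNA, fewer adipocytes and less RNA per adipocyte cannot be told apart, and the part of cell makeup in the values of Plin1, Cidec and G0s2 was not tested.

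Markers of other cells that can carry lipid droplets were low. Of 11 macrophage markers, Adgre1, Tyrobp and Fcer1g had 0 counts in both libraries and Ptprc had 0 and 4. The list summed to 16.02 and 19.0 FPKM, most of it Lyz2 at 12.2 and 16.4. The 5 analysed muscle markers summed to 1.65 and 1.30, and the 7 endothelial markers to 2.46 and 2.06. With nothing added, 3 of 5 endothelial markers with more than 3 counts in both libraries were 2-fold higher. These were Kdr (262 and 65 counts), Pecam1 (24 and 8) and Vwf (73 and 41). Of 5 such macrophage markers 2 were higher, Laptm5 (35 and 19 counts) and C1qc (7 and 4). Of the markers read this way, none of either list was 2-fold lower. Over all genes with more than 3 counts in both libraries, 13.4% were 2-fold higher and 4.22% lower. Markers with 3 or fewer counts in 1 library were left out of these calls. Of these, Cldn5 (23 and 0 counts), Emcn (27 and 3) and C1qb (20 and 0) had more counts in the OE-labelled library, and C1qa (0 and 8) and Ptprc had fewer. The part of such cells in the FPKM of Plin2, 243 and 116, was not tested.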

How the data were processed

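RNA of 2 FAP cultures was sequenced as poly(A)-selected, strand-marked libraries with paired reads of 150 nt, 1 library per condition, grouped by sample title. The authors deposited raw counts per gene and FPKM values rounded to 2 decimals. For the mapping to mm10 the study's methods name STAR and FeatureCounts, whereas the submitters' processing notes list cutadapt 1.9, HISAT2 2.2.1, StringTie 2.1.6, DESeq2 and edgeR, so which tools made these tables is uncertain. FPKM values depend on the gene length and the library total used, and totals of 67868757 and 92424343 were implied by them.

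Libraries were compared mainly by the log2 ratio of (FPKM + 1), called at 1 or −1. It understates changes of low genes, so folds given with a value in the text, and calls made with nothing added, are plain ratios of counts over these totals. Intervals were exact (Clopper-Pearson, Poisson or conditional odds ratio) at the 95% level, and 3 counts served as the floor. Use of molecular identifiers is not given in the sources used here, and without them reads are no independent molecules, so that intervals hold counting error only. No count model was fitted, for want of replicates. The calculations were tested on simulated counts. Positions, exon length and GC content came from GENCODE release M21 on mm10 (99.7% of gene identifiers), and promoters from RefSeq. Python 3.11.15, numpy 2.4.6, pandas 2.3.3 and scipy 1.17.1 were used.

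All members, Tgfbr3, Pparg and Cebpa were named, and up to 5 genes per pathway list by the size of the log2 ratio. Cell type markers were named as such. The members, the 6 pathway lists and the 5 marker lists were chosen with earlier results of these data known.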

Additional observations from a re-analysis of the deposited data

How the results depend on the processing

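Of 69 values of single members under 7 alternatives, 65 kept their direction. The exceptions were Plin4 when centred on the median gene (−0.05) and after removal of the length trend (−0.14), and Plin5 (0.10) and Pnpla2 (0.07) after removal of the GC trend. The number of members at least 2-fold higher was 1, and 0 when centred or with either trend removed, since Plin2 then stood at 0.90 to 0.93. The number at least 2-fold lower was 1, and 2 with a pseudocount of 0.1 or with the plain ratio of counts, where Cidec joined G0s2. The change of Plin2 relative to Plin1 was 1.85 on the log2 scale, and moved to 1.57 after removal of the GC trend and to 1.53 with a pseudocount of 1, an alternative chosen after seeing the data. That of Plin2 relative to Cidec was 2.37, and moved to 1.85 with CPM plus 1 and to 1.64 with a pseudocount of 1. In these the added 1 weighs on Plin1 and Cidec, whose FPKM lay between 0.49 and 1.98. For the shifts with a trend removed, the cause was not tested. No paired analysis was possible because each condition had 1 library, and no library could be left out. Depth limited Plin5, with 0 and 4 counts, and Cidec, with 63 and 212.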
